A study of Mus musculus with 20 samples.

Results

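Fc receptors bind the constant part of antibodies, and 8 genes of this system were described in the cortex of old APOE4 mice: Fcgr1, Fcgr3, Fcgr4, Fcgr2b, Fcer1g, Syk, Fcgrt and Fcrls. They were chosen by name from the 23413 genes of the count tables as the receptors for IgG, their signalling chain, their kinase and an Fc-like receptor. The choice was made with earlier results of these data known, among them the opposite diet difference of Fcgr4 in females and males. All 8 were among the 15660 genes that passed the expression filter. The diet differences are therefore a description. Counts of calls between the diets are given beside the share of all genes called, and nothing is read from them as a test. The difference between the sexes, averaged over both diets, was not itself used in the choice. Its average takes in the KD females, whose values also entered the known diet results, so it too is a description. For Fcgr4 the pattern known at the choice was itself one of diet and sex.

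The mice carried the allele Apoe tm1.1(APOE*4)Adiuj/J on the background B6(SJL), in which human APOE4 stands in place of mouse Apoe, and every group carried it. All were 22 months old and had been given isocaloric amounts of a control diet (CD, called SD in the labels) or a ketogenic diet (KD) for 12 months, from 10 months of age. The groups held 5 females on the CD, 4 females on the KD, 5 males on the CD and 6 males on the KD, with 1 library of total cortex RNA per mouse. The design has no mice without APOE4 and 1 age. RNA came from a weighed piece of frozen cortex, not the whole of it, and such tissue mixes its cell types. CPM below are counts scaled to the library's total, and libraries bear the numbers of their labels.

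Microglia, the resident macrophages of the brain, carry most of the IgG receptors of this tissue. The activating receptors FcγRI, FcγRIII and FcγRIV (genes Fcgr1, Fcgr3 and Fcgr4) bind IgG and signal through the common γ chain encoded by Fcer1g, whose ITAM, a tyrosine motif, recruits the kinase Syk once a Src-family kinase has phosphorylated it. FcγRIIb (Fcgr2b) is the inhibitory receptor and recruits the phosphatase SHIP1 (Inpp5d). Fcgrt encodes the heavy chain of FcRn, which pairs with β2-microglobulin and recycles IgG in endothelium and other cells, and Fcrls is an Fc receptor-like gene known as a marker of microglia.

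Some libraries stood apart from their groups in depth or in markers of brain regions. Totals were from 21015275 to 29109990 counts in library series 1 and from 12207161 to 17697342 in series 2, the 2 ranges into which the library numbers fall, and every group had libraries in both. The summed CPM of 8 striatal markers (such as Drd2 and Adora2a) were 1910 to 2550 in KD females E61, E68 and E207 and 315 in KD female E227, against 212 to 260 in 4 CD females and 888 in CD female E249. Sums of 8 markers of cortical excitatory neurons were 325 to 409 in the former 3 KD females and 367 in E249, against 719 to 986 in the other CD females and 796 in E227. KD male E59 had the highest striatal sum of all, 3210 CPM, and the highest sum of choroid plexus markers, 2370 CPM. Thus the diet difference in females largely went with a difference in regional markers, and what part the latter has in any difference below was not tested. Female libraries had 319 to 1364 CPM of Xist and male libraries 7.59 CPM or less, and mouse Apoe was at 1.33 to 3.34 CPM in all. The Y-linked gene Ddx3y, at 163.5 CPM or more in every male library, reached 14.0 CPM in CD female E228. Microglial markers were present in every library, with summed CPM of 409 to 749 over the 16 genes of the list.

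The 3 activating receptor genes are shown by the sequence just before their RefSeq start, because their levels and diet differences are the main subject below. For Fcgr3 the stretch lies inside the span annotated for the gene (171051174 to 171064935), whereas those of Fcgr1 and Fcgr4 lie before their genes. The letters are those of the gene's own strand in GRCm38.p6, taken from RefSeq and limited to bases outside annotated exons, for Fcgr1 at chr3:96293970-96294219 (minus strand), Fcgr3 at chr1:171059404-171059626 (minus strand) and Fcgr4 at chr1:171018676-171018919 (plus strand). Capitals mark GAGGAA and GGAAGT, the purine-rich core letters of sites for PU.1-type ETS factors, and their reverse complements, which can overlap.
Fcgr1: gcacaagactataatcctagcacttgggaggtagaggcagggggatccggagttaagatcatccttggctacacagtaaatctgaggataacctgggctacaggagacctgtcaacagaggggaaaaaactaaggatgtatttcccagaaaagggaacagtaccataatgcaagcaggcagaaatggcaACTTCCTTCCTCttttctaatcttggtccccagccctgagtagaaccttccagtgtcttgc
Fcgr3: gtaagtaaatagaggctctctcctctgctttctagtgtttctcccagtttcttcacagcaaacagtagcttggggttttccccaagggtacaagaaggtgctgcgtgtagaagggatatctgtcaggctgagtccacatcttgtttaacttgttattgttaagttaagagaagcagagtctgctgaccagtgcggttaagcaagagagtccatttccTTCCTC
Fcgr4: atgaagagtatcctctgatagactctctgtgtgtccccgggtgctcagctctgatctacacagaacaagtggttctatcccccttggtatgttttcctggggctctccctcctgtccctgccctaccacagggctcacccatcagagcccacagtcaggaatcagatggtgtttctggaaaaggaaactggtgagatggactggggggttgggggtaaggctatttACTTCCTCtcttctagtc
Each of the 3 holds the reverse complement of GAGGAA, and Fcgr1 and Fcgr4 also hold that of GGAAGT. Among the 250 bases before the first listed start of each gene, searched on both strands, GAGGAA was in 4 of the 8 genes and in 23.1% of 27025 RefSeq promoters. GGAAGT was in 4 of the 8 and in 20% of all, and either was in 5 of the 8 and in 36.8% of all. A second start of Syk, not counted here, also has GAGGAA. A match is a description of letters and does not show that a factor binds there.

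Per length, the levels of the genes spanned a wide range. Mean CPM per kb of annotated exon over the 20 libraries were 10.4 for Fcgr3, 9.94 for Fcrls, 7.60 for Fcer1g and 4.38 for Fcgrt. They were 1.65 for Fcgr1, 0.604 for Fcgr2b, 0.450 for Syk and 0.326 for Fcgr4. The low-affinity activating receptor and the shared chain it needs were thus the most abundant of the IgG signalling genes, and the high-affinity receptor Fcgr1 lay between them and the inhibitory receptor. Neighbours in this order were not always separate. Fcgr3 was above Fcrls in only 11 of 20 libraries, Fcgr2b above Syk in 16 and Syk above Fcgr4 in 14, whereas Fcgrt was above Fcgr1, and Fcgr1 above Fcgr2b, in all 20. Exon length is that of all annotated transcripts together, which lowers the value per kb of a gene whose transcripts use only part of it.

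**Figure D1:**
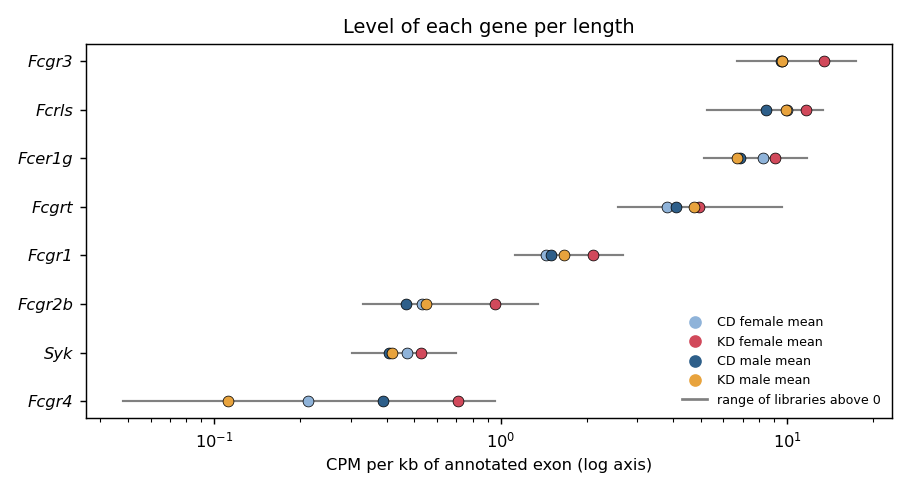
Level of the 8 genes in CPM per kb of annotated exon (log axis), with a point for the mean of each of the 4 groups and a line for the range of the libraries above 0. Fcgr3, Fcrls and Fcer1g are highest, KD females have the highest mean for each of the 8 genes, and the 4 group means of Fcgr4 are spread most widely (its KD male library at 0 has no place on the axis).

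Fcgr4 was the rarest of the receptors and the one whose libraries differed most. It lies on chromosome 1 (GRCm38, 171018920 to 171029761, plus strand), beside Fcgr3 and Fcgr2b, and an snRNA gene, Gm26110, overlaps it. In CD females it was at 0.381, 0.324, 0.246, 0.226 and 0.159 CPM, and in KD females at 1.2, 0.883, 0.819 and 0.658 CPM. Every KD female was above every CD female. In CD males it was at 0.650, 0.565, 0.412, 0.403 and 0.402 CPM, and in the 6 KD males between 0 and 0.271 CPM with a mean of 0.141 ± 0.102 (SD, n = 6). Every KD male was below every CD male. CD males, with 0.487 ± 0.115 CPM (SD, n = 5), were also above all CD females, with 0.267 ± 0.0866 CPM (SD, n = 5). On the KD the order of the sexes was the reverse. The gap on the CD was narrow, from 0.381 CPM (8 counts) in CD female E62 to 0.402 CPM (7 counts) in CD male E264. What share of all genes has such an order of the sexes was not computed.

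The counts behind these values were small. Over a group, 25 counts fell on Fcgr4 in CD females and 73 in KD females, against 53 in males on the CD and 19 in males on the KD. The pooled levels were 0.283 CPM (exact Poisson 95% interval 0.183 to 0.418) in CD females and 0.921 CPM (0.722 to 1.16) in KD females. They were 0.480 CPM (0.360 to 0.628) in CD males and 0.148 CPM (0.0893 to 0.232) in KD males, and these intervals cover counting error only. KD male E256 had 0 counts of 14777883, which allows a level of up to 0.203 CPM (3 counts). The fitted log2 fold change on the KD was 1.61 (standard error 0.385) in females and -1.71 (standard error 0.384) in males. The female minus the male value was 3.32 (standard error 0.545), and the diet difference averaged over the sexes was -0.05 (standard error 0.235). Of the 15660 genes, Fcgr4 was the single one (0.00639%) whose libraries were higher on the KD in females and lower on the KD in males without overlap in either sex, a pattern that was known when the genes were chosen.

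**Figure D2:**
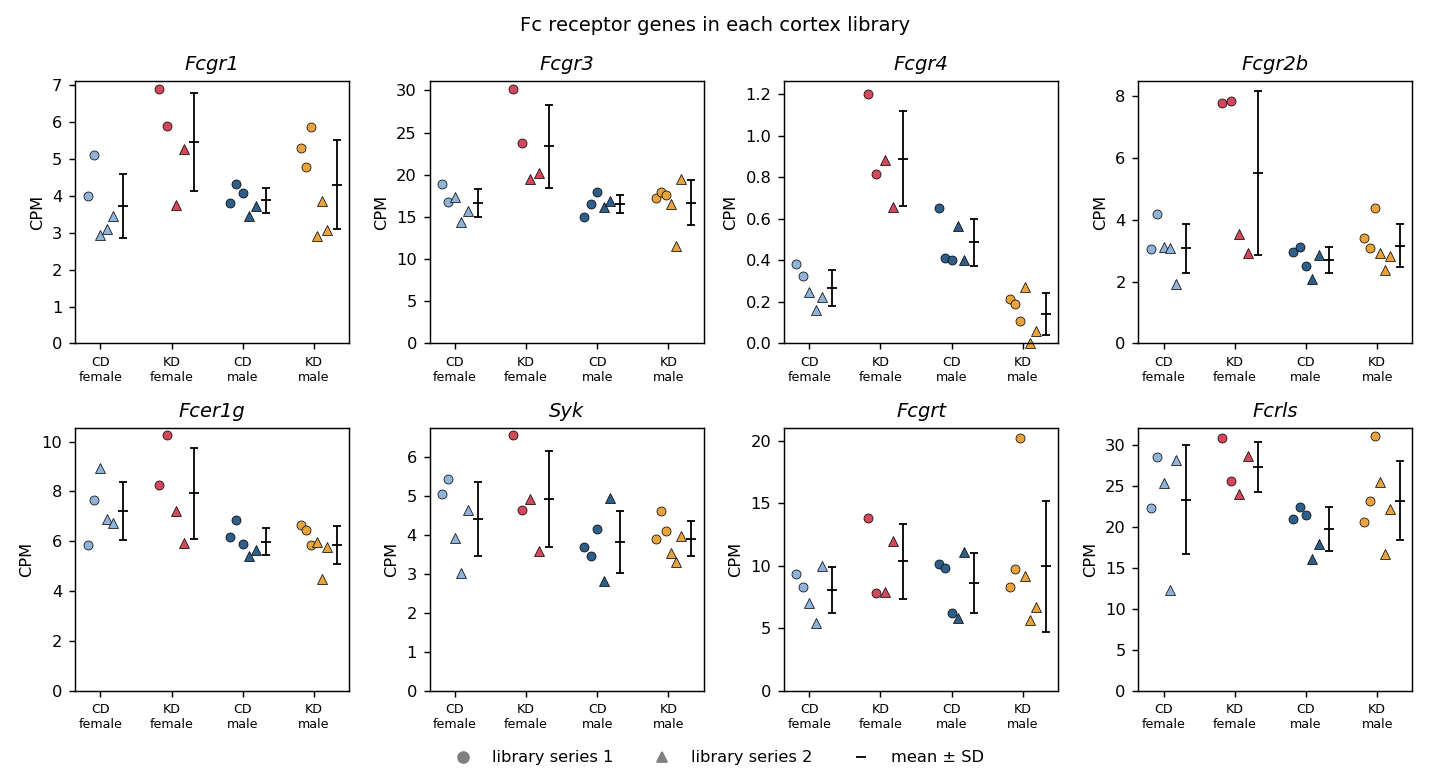
CPM of each of the 8 genes in each of the 20 libraries (circles, library series 1; triangles, series 2), with the mean ± SD of each group at its right. The 4 KD female libraries of Fcgr4 sit between 0.658 and 1.2 CPM, above all others, and its 6 KD male libraries between 0 and 0.271 CPM, while for most of the other genes the groups overlap.

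Fcgr3 encodes the low-affinity activating receptor (chromosome 1, 171051174 to 171064935, minus strand, overlapping Mir6546). It was at 16.6 ± 1.69 CPM (SD, n = 5) in CD females and at 30.2, 23.7, 20.2 and 19.4 CPM in KD females, so that the lowest KD female stood just above the highest CD female at 18.9 CPM. CD males, at 16.5 ± 1.06 CPM (SD, n = 5), and KD males, at 11.6 to 19.5 CPM with a mean of 16.7 ± 2.70 (SD, n = 6), overlapped. Its log2 fold change on the KD was 0.41 (standard error 0.131) in females and 0.01 (standard error 0.118) in males. KD female E61 was the highest of all 20 libraries, and without it the value in females was 0.31.

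Fcgr1, the gene of the high-affinity receptor, lies apart from the others on chromosome 3 (96282909 to 96293969, minus strand). In KD females it was at 6.91, 5.90, 5.26 and 3.75 CPM and in CD females at 5.11, 4.00, 3.45, 3.10 and 2.95 CPM. These overlapped through KD female E207 and CD females E67 and E62. CD males were at 3.88 ± 0.334 CPM (SD, n = 5) and KD males at 4.30 ± 1.21 CPM (SD, n = 6). The log2 fold change on the KD was 0.45 (standard error 0.155) in females and 0.15 (standard error 0.14) in males.

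Fcgr2b, the inhibitory receptor, differed between KD females by library series (chromosome 1, 170958617 to 170976547, minus strand, with the antisense gene Gm38204). KD females E68 and E61, both of series 1, were at 7.84 and 7.77 CPM, whereas E207 and E227 of series 2 were at 3.53 and 2.93 CPM. The latter lie inside the CD female range of 1.92 to 4.17 CPM. Males were at 2.70 ± 0.421 CPM (SD, n = 5) on the CD and 3.17 ± 0.690 CPM (SD, n = 6) on the KD. The log2 fold change on the KD in females, 0.68 (standard error 0.220) over all libraries, was 1.07 within series 1 and 0.19 within series 2. In males it was 0.25 (standard error 0.200). Part of the transcript sequence is held in common with a neighbour. Of the distinct 50-base stretches (the read length) of annotated Fcgr3 transcripts, 10.2% also occur in Fcgr2b, and 6.72% of those of Fcgr2b occur in another gene, mostly Fcgr3. A single read there cannot be assigned with certainty. Its mate in the pair may lie outside the shared sequence, which was not examined.

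The counts on activating receptors (Fcgr1, Fcgr3 and Fcgr4 summed) per count on Fcgr2b were lower on the KD on average in both sexes, with overlapping libraries. The ratio was 7.08 ± 1.91 (SD, n = 5; range 5.33 to 10.1) in CD females and 6.13 ± 2.21 (SD, n = 4) in KD females. Within the KD females it was 4.93 in E61 and 3.88 in E68 of series 1 against 6.81 in E207 and 8.90 in E227 of series 2. In males it was 7.89 ± 1.4 (SD, n = 5) on the CD and 6.78 ± 0.892 (SD, n = 6) on the KD. Activating counts thus outnumbered inhibitory ones in every library.

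Fcer1g and Syk, the chain and the kinase downstream of the activating receptors, were nearly level between the diets. Fcer1g (chromosome 1, 171229572 to 171234365, minus strand) was at 7.22 ± 1.15 CPM (SD, n = 5) in CD females and 7.91 ± 1.83 CPM (SD, n = 4) in KD females. In males it was at 5.98 ± 0.555 CPM (SD, n = 5) on the CD and 5.86 ± 0.764 CPM (SD, n = 6) on the KD. Its log2 fold change on the KD was 0.05 (95% interval -0.27 to 0.36) in females and -0.03 (standard error 0.144) in males, and in females its sign differed between series, 0.42 in series 1 and -0.26 in series 2. Syk (chromosome 13, 52583173 to 52648792, plus strand) was at 4.41 ± 0.957 and 4.93 ± 1.23 CPM in CD and KD females and at 3.82 ± 0.791 and 3.91 ± 0.453 CPM in CD and KD males (SD, n as above). Its log2 fold change was 0.08 (standard error 0.182) in females and 0.04 (standard error 0.165) in males. The receptor Fcgr3 stood at 3.02 ± 0.616 counts per count of its chain Fcer1g in KD females (SD, n = 4) and at 2.36 ± 0.508 in CD females (SD, n = 5), ranges that overlap.

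Fcgrt and Fcrls, which do not signal through this chain, varied more between libraries than between groups. Fcgrt (chromosome 7, 45092990 to 45103851, minus strand, with the antisense gene Gm45669) was at 8.02 ± 1.84 CPM (SD, n = 5) in females on the CD and 10.4 ± 3.0 CPM (SD, n = 4) on the KD. Males had 8.60 ± 2.42 CPM (SD, n = 5) on the CD and 9.96 ± 5.26 CPM (SD, n = 6) on the KD. The spread in KD males came from E64 at 20.2 CPM, since the other 5 were at 5.68 to 9.75 CPM. Its log2 fold change in males, 0.19 (standard error 0.253), was -0.09 without that library. Fcrls (chromosome 3, 87250758 to 87263738, minus strand) was at 23.3 ± 6.68 CPM (SD, n = 5) in females on the CD and 27.3 ± 3.03 CPM (SD, n = 4) on the KD. Males had 19.8 ± 2.66 CPM (SD, n = 5) on the CD and 23.2 ± 4.86 CPM (SD, n = 6) on the KD. It was lowest in CD female E265, at 12.2 CPM, and its log2 fold change was 0.15 (standard error 0.177) in females and 0.24 (standard error 0.161) in males.

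Across the 8 genes, all 8 had a fold change above 0 on the KD in females, with a median log2 value of 0.35 against 0.01 over all genes, of which 52.7% were above 0. In males 6 of 8 were above 0, with a median of 0.09 against -0.003 over all genes. At the thresholds of the study for a DEG (FDR 0.1 and a 1.5-fold change), 0 of the 8 were called in females, where 0.0447% of all genes were called by edgeR's quasi-likelihood test. None was called in males (0% of all genes) or for the diet-by-sex difference (0%), and none for the diet averaged over the sexes (0.268%). The paper, at the same thresholds with edgeR and RUVg, reported many more DEGs in both sexes. With 1 RUVg factor in place of the library series, 0.338% of all genes were called here in females and 0% in males. The share was 1.4% for the diet averaged over the sexes, and 0 of the 8 were called in any of these. All calls given here are those of the fits used here. Without CD female E249, Fcgr2b and Fcgr4 were called in females, as were 6.66% of all genes, and without KD female E227 these 2 genes and 5.68% of all genes were called. For the diet-by-sex difference, Fcgr4 was called without KD female E227 (0.257% of all genes), and without KD male E213 (0.00635%) or KD male E256 (0.00634%). Without regard to size or adjustment, 4 of the 8 (Fcgr1, Fcgr2b, Fcgr3 and Fcgr4) were higher on the KD in females at an unadjusted p under 0.05, as were 5.86% of all genes. KD and CD female libraries did not overlap, with the KD higher, for Fcgr3 and Fcgr4 and for 1.70% of all genes, and with the KD lower for 0 of the 8 and 0.402% of all. In males the libraries did not overlap, with the KD lower, for Fcgr4 and 0.115% of all genes, and with the KD higher for 0 of the 8 and 0.102% of all. Since earlier results of the diet entered the choice of genes, nothing is read from these shares.

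**Figure D3:**
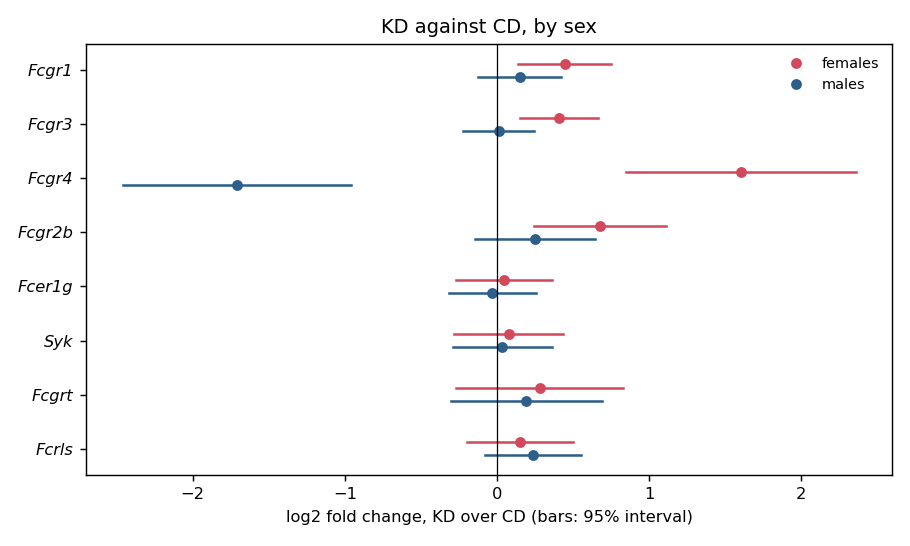
Log2 fold change of each of the 8 genes on the KD against the CD in females and in males, with bars for the 95% interval from one fit of all libraries. Fcgr4 stands at 1.61 in females and -1.71 in males, and the other 7 lie between -0.03 and 0.68.

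Females had the higher value for all 8 genes when both diets were averaged, with a median log2 difference of 0.26 against 0.003 over all genes. This average takes in the KD females and did not hold on the CD alone for every gene. On the CD, female means were lower for Fcgr1 (3.72 against 3.88 CPM in males), Fcgrt (8.02 against 8.60) and Fcgr4. Fcgr3 was nearly level on the CD (16.6 against 16.5 CPM), and Fcgr2b, Fcer1g, Syk and Fcrls were higher in females there too. Of the 8, 5 had an unadjusted p under 0.05 in this direction, as did 8.59% of all genes, and none was a DEG, as were 0.134% of all genes. Fcgr2b was higher in females by 0.50 (standard error 0.147, adjusted p 0.19, Benjamini-Hochberg over all genes tested by edgeR) and Fcer1g by 0.36 (standard error 0.108, adjusted p 0.195). Fcgr4 differed by 0.91 (standard error 0.276, adjusted p 0.196), an average of opposite orders, since females were lower than males on the CD and higher on the KD. For Fcgr3 the difference was 0.24 (adjusted p 0.258), for Syk 0.27 (adjusted p 0.34) and for Fcrls 0.25 (adjusted p 0.382). Fcgr1 (0.17, adjusted p 0.474) and Fcgrt (0.01, 95% interval -0.36 to 0.39, adjusted p 0.981) were closest between the sexes. Without KD female E227, Fcgr4 passed the DEG thresholds for sex (adjusted p 0.0644), as did 5.10% of all genes in that fit. Its pattern by diet and sex was known when the genes were chosen. It failed the expression filter with males fitted alone and entered the test through the KD females, where it was highest. Neither this call nor its unadjusted p is therefore support for a difference between the sexes. The 16 microglial markers were likewise all higher in females, with a median of 0.18, and the 8 cortical excitatory markers were all lower, with a median of -0.63. Of the other lists, all 8 striatal markers (median 0.98) and all 8 endothelial markers (median 0.25) were higher in females, as were 6 of 8 border macrophage markers (median 0.50). The part of these in the difference between the sexes was not tested.

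Library series moved 2 of the genes. Series 2 was lower than series 1 by 0.45 on the log2 scale for Fcgr1 (adjusted p 0.00513, edgeR's quasi-likelihood test) and by 0.51 for Fcgr2b (adjusted p 0.0197), and the other 6 had log2 values from -0.36 to -0.14 (adjusted p 0.218 to 0.351). Fcgr4 kept its signs in both series, which libraries that do not overlap between the diets all but fix in advance. Its log2 fold change on the KD was 1.47 in females of series 1 and 1.76 in those of series 2, and -1.52 and -2.07 in the males. Fcgr1 was steady in females, 0.45 and 0.44, but in males was 0.34 in series 1 and -0.12 in series 2. Fcgr3 in females was 0.55 and 0.25, Fcgrt in males 0.50 and -0.23, and Fcrls was above 0 in both series and both sexes. The series also differ in depth, and depth and series cannot be told apart.

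**Figure D4:**
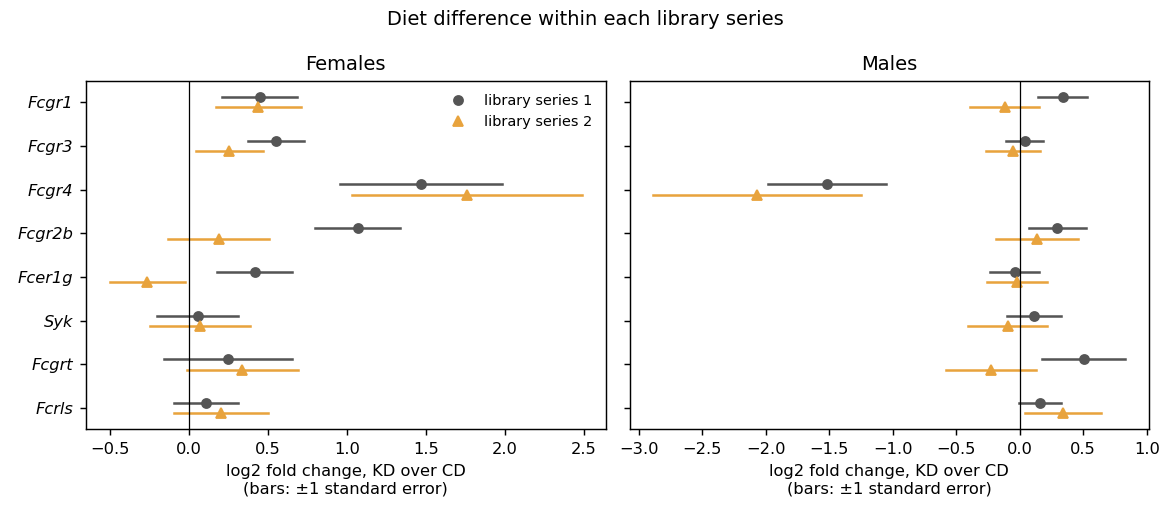
Log2 fold change of each of the 8 genes on the KD within library series 1 and within series 2, for females and males, with bars of 1 standard error. Fcgr4 lies on the same side of 0 in both series (1.47 and 1.76 in females, -1.52 and -2.07 in males), whereas Fcgr2b in females is 1.07 in series 1 and 0.19 in series 2. For Fcgr4 this side is all but fixed by libraries that do not overlap between the diets.

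The levels of several of the genes went with those of microglial markers. Summed CPM of the 16 markers were 409 to 574 in CD females (median 478) and 522 to 749 in KD females (median 627), the highest being E61 at 749 and E68 at 702. They were 413 to 550 in CD males and 415 to 590 in KD males. In bulk tissue, fewer cells of a type and less RNA per cell cannot be told apart. All 16 had a log2 fold change above 0 on the KD in females and 5 (Csf1r, Itgam, Aif1, C1qb and C1qc) had an unadjusted p under 0.05, as did 5.86% of all genes in this direction. In males 15 of 16 were above 0 and none had such a p. Per 1000 counts on these markers, Fcgr3 was close between groups, at 33.7 ± 4.21 in CD females (SD, n = 5) and 37.0 ± 3.0 in KD females (SD, n = 4), 35.2 ± 4.10 in CD males (SD, n = 5) and 34.1 ± 5.35 in KD males (SD, n = 6). Fcgr4 was not. It was at 0.536 ± 0.169 in CD females, with a highest value of 0.810, against 1.17 to 1.61 in KD females. In males it was at 0.750 to 1.42 on the CD against 0 to 0.613 on the KD, so that neither sex overlapped between diets on this scale either. The marker sums varied less between libraries than Fcgr4 did, and its non-overlap in CPM was known at the choice. This is therefore a description, and the share of all genes without overlap on this scale was not computed. With the microglial score as a covariate, the log2 fold change in females was 1.75 for Fcgr4, 0.44 for Fcgr2b, 0.40 for Fcgr1 and 0.21 for Fcgr3. It was below 0 for Fcer1g (-0.17), Syk (-0.18), Fcgrt (-0.16) and Fcrls (-0.29). What part microglia have in these differences was not tested.

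**Figure D5:**
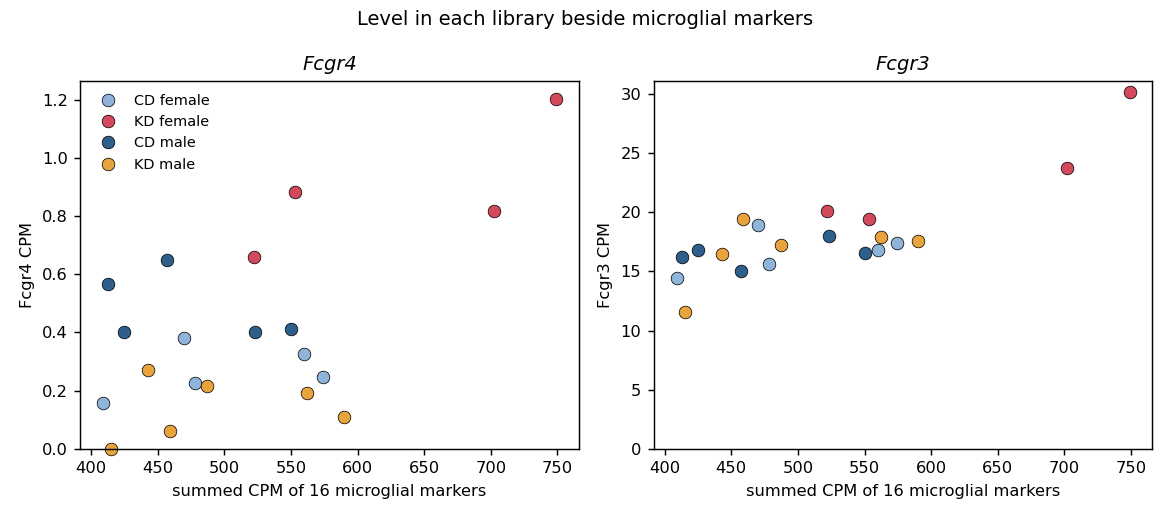
CPM of Fcgr4 (left) and Fcgr3 (right) in each of the 20 libraries against the summed CPM of 16 microglial markers in the same library. For Fcgr3 the 2 highest KD females are also the 2 highest in microglial markers (702 and 749 CPM), and the library highest in Fcgr4 is the same as the highest in the markers. All 4 groups have libraries between 522 and 590 CPM of the markers, among them KD females E207 and E227. KD females are above all other libraries in Fcgr4, a pattern known when the genes were chosen. The part of microglia in it was not tested.

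Markers of other cells that carry Fc receptors were summed in the same way. Monocyte and neutrophil markers, a relevant list since blood monocytes and neutrophils carry FcγRIV, summed to 2.80 to 13.4 CPM in females on the CD and 2.94 to 5.43 CPM on the KD. In males they summed to 1.73 to 8.79 CPM on the CD and 1.79 to 6.97 CPM on the KD. All 8 were in the tables and 4 passed the filter. In females the log2 fold changes on the KD were -2.24 for S100a9 and -1.52 for S100a8, calgranulins of neutrophils, -0.30 for the integrin gene Itgal and 0.14 for the monocyte chemokine receptor gene Ccr2. The part of these cells in the values of Fcgr4 was not tested. Border macrophage markers (8 genes, such as Mrc1 and Cd163) summed to 31.9 to 64 CPM in CD females and 46.6 to 62.5 CPM in KD females. They were at 19.1 to 51.9 CPM in CD males and 31.0 to 73.7 CPM in KD males, the highest being E64, the library in which Fcgrt was also highest. Endothelial markers (8 genes, such as Cldn5), of interest because endothelium uses FcRn, summed to 245 to 399 CPM over the 20 libraries. The 5 B and plasma cell genes used summed to at most 4.58 CPM and the 7 T and NK cell genes to at most 1.47 CPM in any library. As for the regional markers, Fcgr4 was at 0.658 CPM in KD female E227, whose striatal sum was near those of the CD females, and at 0.246 CPM in CD female E249, whose cortical sum was near those of the other KD females. Without E249 and E227 the log2 fold change of Fcgr4 was 1.68 in females and that of Fcgr2b 0.90. The striatal sums left were 1910 to 2550 CPM in KD females and 212 to 260 CPM in CD females. Diet and region thus cannot be told apart in females of that fit. In KD male E59, with the highest striatal sum, Fcgr4 was at 0.190 CPM, within the range of the other KD males.

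Genes downstream of the receptors were described from a fixed list of 34, of which 32 passed the filter. In females 23 had a log2 fold change above 0 on the KD and 9 below, with a median of 0.15, and none was a DEG. At an unadjusted p under 0.05, Vav3, a guanine nucleotide exchange factor (0.53), and Was, an activator of actin branching (0.69), were higher and Blnk, an adaptor (-0.86), was lower. In males 19 were above 0, with a median of 0.02, and at such a p Lcp2, an adaptor (0.58), was among the higher genes and Pik3r1, a PI3 kinase subunit (-0.27), was lower. Between the sexes 25 were higher in females, 7 of them at an unadjusted p under 0.05 (8.59% of all genes in this direction): Lyn, Vav1, Vav3, Pik3cg, Prkcd, Rac2 and Cybb, the catalytic subunit of the phagocyte oxidase (1.21). Blnk was lower at such a p. Over all genes, the share at such a p was 5.86% higher and 5.50% lower on the KD in females, 2.37% higher and 1.19% lower in males, and 4.96% lower in females than in males, and these apply to the lists below as well.

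Of 12 genes that restrain the pathway, 10 were tested, and none was a DEG. Inpp5d, the SHIP1 phosphatase that acts below FcγRIIb, was at 12.8 ± 2.59 CPM (SD, n = 5) in CD females and 16.3 ± 2.62 CPM (SD, n = 4) in KD females, and at 13 ± 3.06 (SD, n = 5) and 12.5 ± 2.52 CPM (SD, n = 6) in CD and KD males. In females 8 of the 10 were above 0 on the KD, and Cblb, a ubiquitin ligase, was lower (-0.34) at an unadjusted p under 0.05. Ptpn6, Pag1 and Lilrb4 were higher in females than in males and Cblb lower at such a p. Of a list of 11 other immune receptors and adaptors, some of which signal through an ITAM, 5 passed the filter. Trem2, a lipid-sensing receptor of microglia, was higher on the KD in females (0.49), and Clec7a, the β-glucan receptor (1.04), and Cd300a were higher in females than in males, each at an unadjusted p under 0.05. None of these was a DEG.

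The partner of FcRn, β2-microglobulin (B2m), was at 86.2 to 169 CPM in the 20 libraries, with a log2 fold change of 0.01 on the KD in females. Of its list of 8 genes of MHC class I and related function, 7 were above 0 in females and 4 in males. Cd74, the invariant chain of MHC class II, was higher on the KD by 1.07 in females and 0.98 in males at an unadjusted p under 0.05, and was not a DEG in either. Other immunoglobulin receptors and Fc receptor-like genes were at low levels, apart from Trim21 at 2.71 to 9.34 CPM. Of 12, only Fcer2a, Fcrl1 and Trim21, a cytosolic antibody receptor, passed the filter, and Fcer1a, the α chain of the IgE receptor that also uses Fcer1g, was at most at 0.164 CPM.

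Over the 20 libraries, the levels of several of the genes varied together, given here as Pearson's r of log2 CPM centred within each series. These libraries share diets, sexes, depth and regional makeup, so r is a description. Fcgr3 and Fcgr2b, which share sequence, had r = 0.702, Fcgr2b and Fcer1g 0.668, Fcgrt and Fcrls 0.638 and Fcgr3 and Fcgr4 0.627. Fcer1g and Fcgrt had -0.04. The median r with the 16 microglial markers was 0.608 for Fcrls, 0.545 for Fcer1g, 0.532 for Fcgr3 and 0.526 for Fcgr2b. It was 0.466 for Fcgr1, 0.458 for Syk, 0.328 for Fcgr4 and 0.304 for Fcgrt, against medians of 0.0459 to 0.160 over all genes. The genes most like each of the 7 with a mean of at least 1 CPM were then listed, up to 3 for each. For Fcrls they were Capn3 (0.862), Olfml3 (0.855) and Tyrobp (0.853), the latter 2 being expressed by microglia. For Fcgrt they were Vtn (0.922), Lamb2 (0.919) and Cbx8 (0.914), of which Vtn and Lamb2 encode matrix proteins of vessels. For Fcgr2b they were Samd3 (0.899), 1810030O07Rik (0.888) and Ctsh (0.886), a lysosomal protease. For Fcer1g they included Bend7 (0.892) and Cyp2e1 (0.864) and for Fcgr3 Sncg, Rgs10 and Hadha (0.838 to 0.819). Fcgr1 had Polr2d, Timm17a and Wdr41 (0.798 to 0.746) and Syk had Phf11b, Nuak2 and Nsg1 (0.767 to 0.741).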

How the data were processed

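RNA was measured in 20 cortex libraries, prepared as stranded total RNA and sequenced as 50-base pairs. Reads were aligned by the authors with STAR (build mm10), and the deposited values are raw read counts per gene from HTSeq's counting, not normalized. Versions, annotation and the counted strand are not given in the sources used here, so reads of an overlapping or antisense gene cannot be told apart. Groups came from the labels.

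From the deposited counts, CPM and log2 CPM (prior count 2) were computed in Python 3.11.15. edgeR 4.0.16 in R 4.3.3 tested 15660 genes that passed filterByExpr, with upper-quartile normalization, the 4 groups and the library series in one quasi-likelihood fit, and Benjamini-Hochberg adjustment over all genes. DEGs had an FDR up to 0.1 and at least a 1.5-fold change. RUVg, which the paper names, was an alternative, as was DESeq2 1.42.0. None of 41 pairs of libraries within a group was alike within sampling noise. Totals of at least 12207161 counts limit the precision of low counts.

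The genes and lists were chosen with earlier results of these data known. Named are the 8 genes, the 3 genes of highest correlation with each that averaged at least 1 CPM, and from each list the genes with the largest diet differences or an unadjusted p under 0.05. Inpp5d, B2m and Fcer1a were named for their role. Coordinates and exon lengths came from GENCODE M21 (GRCm38), promoters from RefSeq. Immunoglobulin genes were not analysed here, and some genes outside the 8 that this naming rule selects are not reported here.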

Additional observations from a re-analysis of the deposited data

Results flagged for a closer look

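Fcgrt in KD males was flagged because 1 library stood far from the others of its group. E64 was at 20.2 CPM and the other 5 at 5.68 to 9.75 CPM, so that the gap to its nearest neighbour made up 0.721 of the whole range of the group. The same library had the highest summed CPM of border macrophage markers, 73.7, and a sum of endothelial markers of 303 CPM, against 245 to 304 CPM in the other KD males. Of 40 groups of libraries checked in this way (the 8 genes and 2 count ratios, each in 4 groups), 1 was flagged, where chance flags about 2.0.

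Fcgr4 was flagged because its diet difference had opposite directions in the sexes. Every KD female was above every CD female and every KD male below every CD male, and the log2 fold change in females exceeded that in males by 3.32 (standard error 0.545). This difference did not pass the DEG thresholds in the fit of all 20 libraries, and the gene was chosen with the pattern known, so the value is a description. It rests on 19 to 73 counts per group.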

How the results depend on the processing

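Counts of the 8 genes that passed the DEG thresholds, 0 in each of the 5 comparisons, changed in these settings. For the diet in females the count was 1 in library series 1 alone (Fcgr2b, with 5.42% of all genes called), 1 under DESeq2 (Fcgr4, with 1.62%) and 2 without both E249 and E227 (Fcgr2b and Fcgr4, with 12.2%). It was 0 to 2 when single libraries were left out, with 2 without E249 (6.66% of all genes) and 2 without E227 (5.68%). For the diet-by-sex difference it was 1 (Fcgr4) without both E249 and E227 (3.56% of all genes) and 1 under DESeq2 (0.00639%), and 0 to 1 when single libraries were left out, with 1 without E227 (0.257%), E213 (0.00635%) or E256 (0.00634%). For the diet averaged over the sexes it was 1 (Fcgr2b) in series 1 alone (5.55% of all genes). For sex it was 1 (Fcgr4) without both E249 and E227 (3.24% of all genes), and 0 to 1 when single libraries were left out, with 1 without E227 (5.10%). The cause was not tested. Leaving out single libraries, the log2 fold change of Fcgr4 on the KD in females was 1.5 to 1.7 and in males -1.96 to -1.54, and that of Fcgr2b in females from 0.54 to 0.85. The diet difference of Fcgr4 kept its sign in 31 of 31 settings that gave a value in females and 30 of 30 in males, single libraries left out included. Its libraries did not overlap between the diets in either sex, so these settings could hardly reverse the sign and do not test the pattern. Fcgr4 has no value with at least 10 counts required in every library or with males fitted alone, since it then failed the filter, and fitting each sex separately gives only the 2 diet comparisons. No paired analysis was possible because no replicate number is shared between groups. Fcgr4 had at most 31 counts in a library, which limits its precision.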
